A study of Homo sapiens with 6 samples.

Results

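The genes described here encode 8 lysosomal glycosidases, GLB1, HEXA, GAA, GLA, MAN2B1, FUCA1, NEU1 and GUSB. They were chosen by gene name, as 8 of the 34738 genes of the expression table, by a rule that uses no measured value, though with earlier results of these data known. After knockdown of GDF15 the transcripts of FUCA1, GAA, GLB1, MAN2B1, NEU1 and HEXA rose, and those of GLA and GUSB fell. FUCA1 rose most of the 8, from 8.94 ± 0.977 to 30.5 ± 0.814 FPKM (mean ± SD, n = 3 libraries in each group). GLB1, the lysosomal β-galactosidase, rose from 11.2 ± 1.28 to 23.5 ± 1.07 FPKM. FPKM counts sequenced fragments relative to transcript length and to all mapped fragments of the library.

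The study compared RNA from thyroid cancer cells in which GDF15, a secreted member of the TGF-β superfamily, had been knocked down by siRNA (siGDF15) with RNA from control cells (NC). There were 3 libraries of each, which the methods call biological replicates. All 6 libraries carry the label of KHM-5M, an established human thyroid cancer line, and the genotype labels read GDF15 for the siGDF15 libraries and control for NC. A figure legend of the paper names another line, TPC-1, and which of them these libraries come from was not tested. The deposited design text calls the control a blank, the methods speak of negative control cells and list a negative control siRNA, and a legend speaks of vector control. Whether NC cells were transfected was therefore not settled, and if they were not, the effect of transfection cannot be told apart from that of the knockdown. A single line and a transient knockdown limit both groups as a model. GDF15 itself was at 22.4, 19.3 and 23.1 FPKM in NC replicates 1 to 3 and at 10.8, 10.5 and 10.7 FPKM in siGDF15 replicates 1 to 3, a log2 fold change of −0.92 (SE 0.079, adjusted p = 2.4e-05).

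Lysosomal glycosidases are acid hydrolases that remove sugars from the ends of glycoproteins, glycolipids, glycosaminoglycans and glycogen delivered to the lysosome. Most are made in the endoplasmic reticulum, tagged with mannose 6-phosphate in the Golgi apparatus and carried to lysosomes by receptors for that tag, and inherited loss of each of the 8 enzymes causes a lysosomal storage disease. The activity of β-galactosidase that is stained in senescent cells at a pH above its optimum comes from the lysosomal enzyme encoded by GLB1. A transcript level does not measure that activity, and enzyme activity was not measured in these libraries.

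The total expected count per library ranged from 51738814 to 68025163, with siGDF15 replicate 2 the lowest. Mitochondrially encoded genes held 6.39 to 6.78% of the counts in NC and 8.53 to 9.17% in siGDF15. This share moved with the groups, and its part in the results was not tested. Of 7 thyroid follicular cell markers PAX8 was at 54.3 to 64.9 FPKM in NC and 77.5 to 80.4 in siGDF15 (log2 fold change 0.53, adjusted p = 0.00012), FOXE1 was at 2.53 to 2.94 FPKM over all 6 libraries, and TG, SLC5A5 and NKX2-1 were at 0.219 FPKM or less. TG was too low to be tested, at 0.035 to 0.071 FPKM in NC and 0.162 to 0.219 FPKM in siGDF15, with no overlap between the groups. TSHR was not analysed here. The 6 markers listed in the table summed to 56.9 to 67.9 FPKM in NC and 80.3 to 83.6 FPKM in siGDF15. All 5 epithelial markers had a mean of at least 1 FPKM, and their sum was 101.5 to 148.5 FPKM in NC and 125.6 to 135.6 FPKM in siGDF15. Macrophages are rich in lysosomes, and among 7 macrophage and leukocyte markers the pan-leukocyte gene PTPRC was at 0.00685 FPKM or less in every library, and CD68, which encodes a lysosomal membrane protein, was the single one with a mean of at least 1 FPKM. Below that filter and not tested, CD14 was at 0.107 to 0.249 FPKM in NC and 0.592 to 0.739 FPKM in siGDF15, and CSF1R at 0.123 to 0.187 and 0.050 to 0.114 FPKM, with no overlap between the groups for either. That list summed to 18.0 to 19.9 FPKM in NC and 16.6 to 18.8 FPKM in siGDF15. Of 6 fibroblast and endothelial markers 3 had a mean of at least 1 FPKM, and all 6 summed to 11.9 to 16.1 and 12.6 to 14.5 FPKM.

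All 8 genes are on GRCh38 and are placed in the KEGG lysosome pathway by the deposited annotation. GLB1 (ENSG00000170266) is at chr3:32996609-33097146 on the minus strand. NEU1 (ENSG00000204386) is at chr6:31857659-31862905, FUCA1 (ENSG00000179163) at chr1:23845077-23868290, MAN2B1 (ENSG00000104774) at chr19:12646511-12666742, HEXA (ENSG00000213614) at chr15:72340924-72376014, GLA (ENSG00000102393) at chrX:101393273-101407990 and GUSB (ENSG00000169919) at chr7:65960684-65982215, all on the minus strand. GAA (ENSG00000171298), at chr17:80101556-80119881, is the single one of the 8 on the plus strand.

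Promoter sequences were read for the members because 6 of the 8 genes rose together. Many lysosomal genes carry an E-box in their promoters that TFEB, TFE3 and MITF, related transcription factors, can bind. A window of 250 bases before to 50 bases after the RefSeq start (GRCh38.p14) was listed for 7 of the 8 genes, HEXA being the other. Each window was searched on both strands for CACGTG and for TCACGTG, in which CACGTG lies. CACGTG was in 7.26% and TCACGTG in 3.71% of 35116 RefSeq windows of this length. GAA and NEU1 held TCACGTG, and GLB1, GLA, MAN2B1, FUCA1 and GUSB held neither run of letters. In GAA the motif was found at 2 places, centred 73 and 28 bases before the start, and in NEU1 at 1 place, 123 bases before it. The GLB1 window begins from a RefSeq start 408 bases inside that of its principal GENCODE transcript, so it does not cover the upstream promoter of that transcript. The RefSeq start also lies inside that of the principal transcript by 85 bases for NEU1 and 101 for GUSB. For GAA it lies 123 bases before it. Motif positions are given from the RefSeq start. A match of letters is a description and not a binding site. The windows of 4 genes follow, 5′ to 3′ along the gene, with the matches to TCACGTG in capitals. GAA and NEU1 are shown for their matches, and FUCA1, which rose most, and GLA, which fell, as windows without one. The GAA window is chr17:80101331-80101630 on the plus strand, and those of NEU1, FUCA1 and GLA are chr6:31862772-31863071, chr1:23868241-23868540 and chrX:101407876-101408175 on the minus strand.
GAA: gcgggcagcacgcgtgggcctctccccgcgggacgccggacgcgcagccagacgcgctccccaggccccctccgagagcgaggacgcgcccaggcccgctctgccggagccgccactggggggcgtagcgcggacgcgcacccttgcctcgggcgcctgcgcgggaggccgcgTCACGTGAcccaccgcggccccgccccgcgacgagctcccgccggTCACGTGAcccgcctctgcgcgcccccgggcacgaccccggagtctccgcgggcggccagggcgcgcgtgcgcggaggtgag
NEU1: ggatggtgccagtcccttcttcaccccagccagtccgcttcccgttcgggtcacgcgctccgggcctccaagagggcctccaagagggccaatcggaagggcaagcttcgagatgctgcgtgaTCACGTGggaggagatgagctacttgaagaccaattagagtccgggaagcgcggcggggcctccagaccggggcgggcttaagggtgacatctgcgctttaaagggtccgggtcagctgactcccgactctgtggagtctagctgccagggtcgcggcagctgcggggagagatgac
FUCA1: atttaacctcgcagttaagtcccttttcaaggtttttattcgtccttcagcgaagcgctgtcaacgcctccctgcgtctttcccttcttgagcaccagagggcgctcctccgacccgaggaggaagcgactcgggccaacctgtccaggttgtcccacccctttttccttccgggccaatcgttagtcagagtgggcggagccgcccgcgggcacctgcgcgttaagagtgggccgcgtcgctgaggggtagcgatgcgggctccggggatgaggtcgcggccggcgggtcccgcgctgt
GLA: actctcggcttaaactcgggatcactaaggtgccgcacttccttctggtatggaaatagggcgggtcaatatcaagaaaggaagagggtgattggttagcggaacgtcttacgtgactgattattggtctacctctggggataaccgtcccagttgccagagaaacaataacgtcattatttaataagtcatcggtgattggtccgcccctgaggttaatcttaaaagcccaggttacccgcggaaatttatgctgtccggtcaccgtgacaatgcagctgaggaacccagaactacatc

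All 8 genes passed the filter, a mean of at least 1 FPKM over the 6 libraries, which left 11867 genes tested. Differences were tested on the expected counts with edgeR's quasi-likelihood test and Benjamini-Hochberg adjustment over all genes tested, and a gene was called at an adjusted p under 0.05. Fold changes are siGDF15 relative to NC on the TMM-normalised scale, with an SE from the fit. In bulk RNA a lower share of cells with a transcript and less of it per cell cannot be told apart. The median over all genes tested was 0.00 on this scale and −0.10 in limma on log2(FPKM + 0.1), so a ratio of the FPKM printed here lies somewhat below the tested fold change. All 8 genes were called, against 61.4% of the genes tested. The 6 that rose compare with 30.0% of genes tested that were higher, and the 2 that fell with 31.4% that were lower. When counts were scaled by the library totals alone, 36.6% of the called genes were higher, against 48.9% with TMM, and the same 6 and 2 of these genes were called in the same directions. The groups did not overlap in FPKM for any of the 8, which was also so for 68.4% of the genes tested. FUCA1, GAA and GLB1 were called with log2 fold changes of at least 1, as were 3.03% of genes tested. The median log2 fold change of the 8 was 0.84, against 0.00 over all genes tested.

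**Figure D1:**
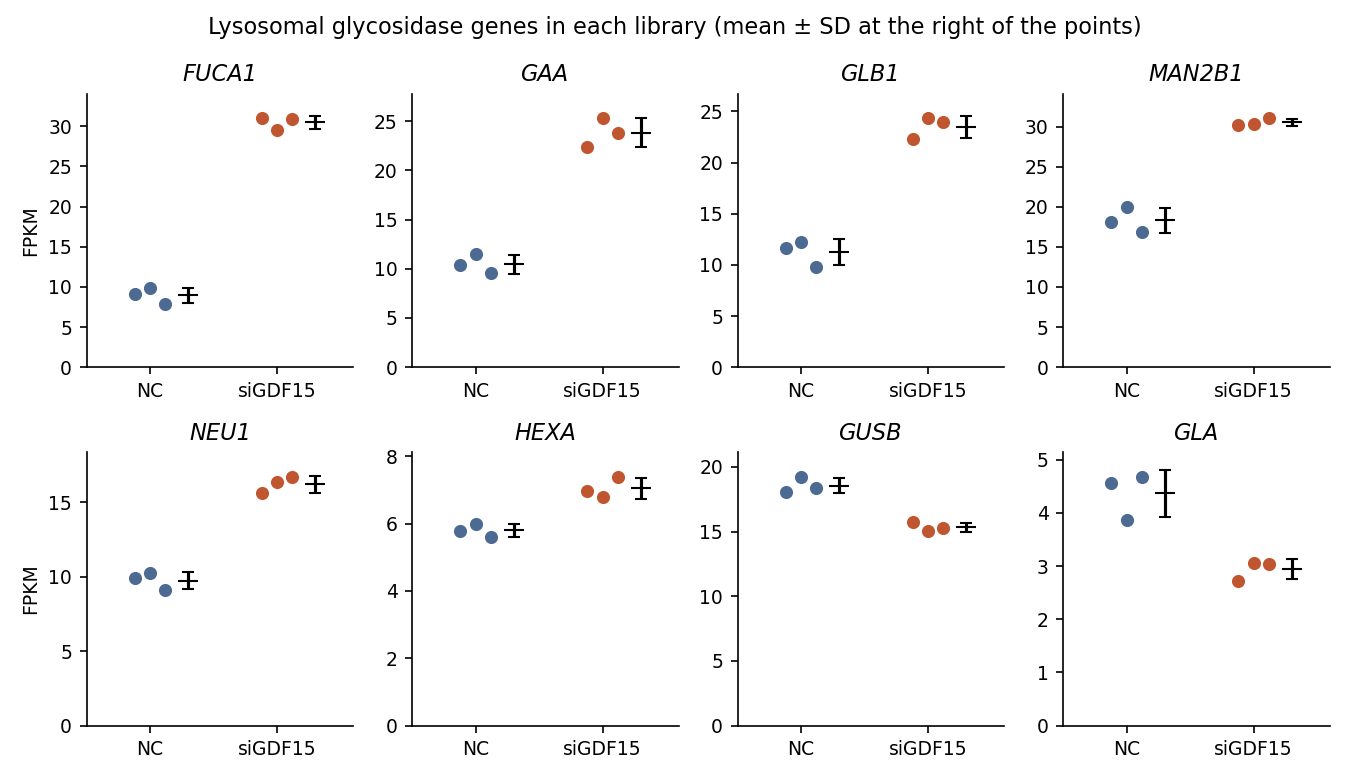
FPKM of each lysosomal glycosidase gene in the 3 NC and 3 siGDF15 libraries in a panel of its own, each axis starting at 0 and scaled to its gene, with the mean and SD beside the points. FUCA1 shows the widest gap, with 7.91 to 9.85 FPKM in NC and 29.6 to 31.0 FPKM in siGDF15, while GLA and GUSB are the 2 genes whose siGDF15 points lie below the NC points.

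GLB1 and NEU1 work in a lysosomal complex that the protective protein cathepsin A (CTSA) holds together. GLB1 removes terminal β-linked galactose from gangliosides and keratan sulfate. It was at 11.6, 12.2 and 9.79 FPKM in NC replicates 1 to 3 and at 22.3, 24.3 and 23.9 FPKM in siGDF15 replicates 1 to 3. The lowest siGDF15 library was above the highest NC library. The log2 fold change was 1.17 (SE 0.083, 95% interval 0.98 to 1.36, adjusted p = 8.2e-06), a 2.25-fold rise. GLB1 overlaps TMPPE on the same strand over 6726 bases, and TMPPE was at 0.496 to 0.705 FPKM.

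NEU1 is the lysosomal sialidase, which removes terminal sialic acid before other enzymes can reach the sugars beneath. Its level was 9.90, 10.2 and 9.09 FPKM in NC and 15.6, 16.4 and 16.7 FPKM in siGDF15, and the groups lay apart. The log2 fold change was 0.84 (SE 0.059, 95% interval 0.71 to 0.98, adjusted p = 7.9e-06). CTSA, the third protein of the complex, rose by 0.86 on the log2 scale (SE 0.047, adjusted p = 2.3e-06), from 38.3 ± 1.62 to 64.4 ± 1.65 FPKM. Its RefSeq window held TCACGTG at 2 places, 39 and 22 bases before the start.

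FUCA1 and MAN2B1 take apart the sugar chains of N-glycosylated proteins. FUCA1, the lysosomal α-fucosidase, was at 9.08, 9.85 and 7.91 FPKM in NC and at 31.0, 29.6 and 31.0 FPKM in siGDF15. The lowest siGDF15 library lay far above the highest NC library. The log2 fold change of 1.88 (SE 0.081, 95% interval 1.69 to 2.06, adjusted p = 8.4e-07) was the largest of the 8, a 3.67-fold rise. MAN2B1, the lysosomal α-mannosidase, was at 18.2, 19.9 and 16.8 FPKM in NC and at 30.2, 30.4 and 31.0 FPKM in siGDF15. It was the most even of the 8 across the siGDF15 libraries relative to its mean, and the groups lay apart. Its log2 fold change was 0.84 (SE 0.060, 95% interval 0.70 to 0.98, adjusted p = 8.9e-06). MAN2B1 shares 1887 bases with ENSG00000269242 on the same strand, listed at 4.91 to 6.84 FPKM, so reads there could be split between them.

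GAA, the acid α-glucosidase, breaks down glycogen that reaches the lysosome. It was at 10.4, 11.5 and 9.55 FPKM in NC and at 22.4, 25.3 and 23.8 FPKM in siGDF15. The groups lay apart by more than the spread within either. The log2 fold change was 1.29 (SE 0.077, 95% interval 1.12 to 1.47, adjusted p = 3.2e-06), a 2.45-fold rise. No gene listed in the table overlaps GAA.

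HEXA encodes the α subunit of β-hexosaminidase A, which degrades GM2 ganglioside with the help of the activator protein encoded by GM2A. HEXA was at 5.79, 5.99 and 5.61 FPKM in NC and at 6.95, 6.80 and 7.38 FPKM in siGDF15. This was the smallest rise among the 6 genes, with no overlap between the groups. The log2 fold change was 0.39 (SE 0.047, 95% interval 0.28 to 0.49, adjusted p = 0.00017). GM2A was at 7.20 ± 0.269 and 6.10 ± 0.272 FPKM and was not called (log2 fold change −0.14, adjusted p = 0.092).

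GLA, the α-galactosidase whose loss causes Fabry disease, was at 4.56, 3.87 and 4.68 FPKM in NC and at 2.73, 3.06 and 3.05 FPKM in siGDF15. No siGDF15 library reached the lowest NC library. The log2 fold change was −0.46 (SE 0.093, 95% interval −0.68 to −0.25, adjusted p = 0.0027). On the opposite strand GLA overlaps RPL36A over 2883 bases and the readthrough gene RPL36A-HNRNPH2 over 14718 bases. RPL36A, a ribosomal protein gene, was at 28.96 to 40.1 FPKM and rose by 0.40 on the log2 scale (SE 0.072, adjusted p = 0.0014). RPL36A-HNRNPH2 was at 0.590, 33.5 and 32.3 FPKM in NC and 31.7, 27.2 and 34.3 FPKM in siGDF15 and was not called (adjusted p = 0.57). The library kit marks strand, but whether strand was used in counting is not stated, so the GLA values are uncertain to that extent.

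GUSB, the β-glucuronidase of glycosaminoglycan breakdown, was at 18.1, 19.2 and 18.4 FPKM in NC and at 15.7, 15.0 and 15.2 FPKM in siGDF15. The groups lay apart, by the smallest log2 fold change of the 8, −0.17 (SE 0.047, 95% interval −0.28 to −0.06, adjusted p = 0.012). Without siGDF15 replicate 3 the adjusted p was 0.057, and after equalising the library medians it was 0.058, so the fall of GUSB does not hold under every setting. The human genome holds pseudogene copies of GUSB, and 14 of them were listed, with sums of 6.90 to 9.84 FPKM per library, so its count is uncertain by reads that fit more than 1 copy.

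**Figure D2:**
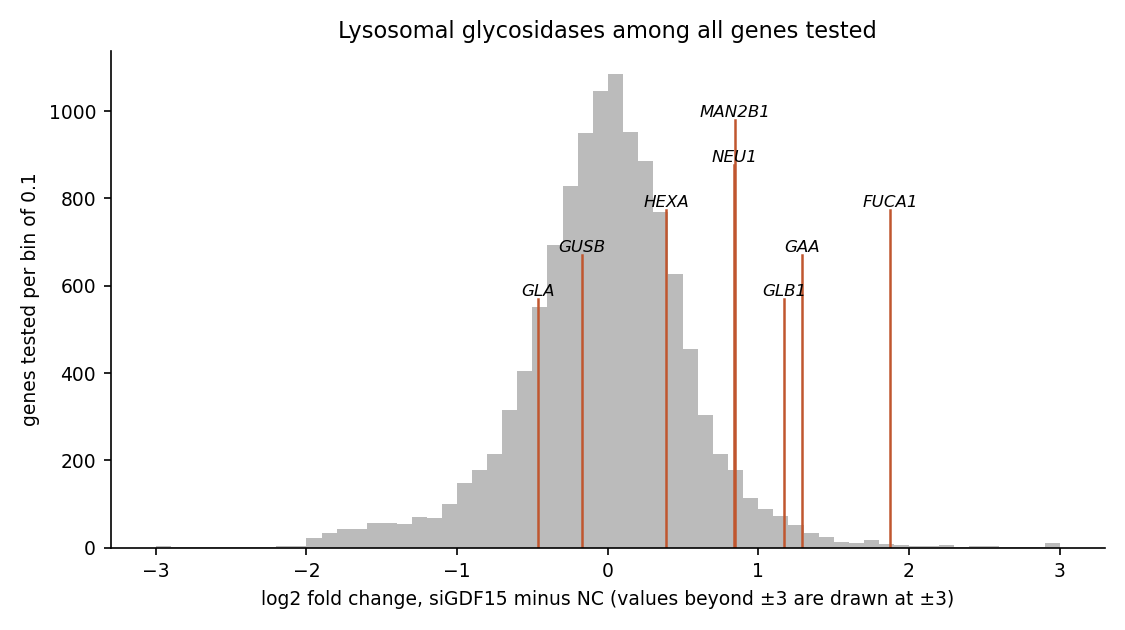
Log2 fold changes of siGDF15 relative to NC for all 11867 genes tested, counted in bins of 0.1 (grey), with the 8 lysosomal glycosidases as orange lines whose heights carry no meaning. FUCA1, GAA, GLB1, MAN2B1 and NEU1 lie in the right tail, while HEXA, GUSB and GLA lie within the bulk of genes.

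Levels were compared between the genes per length. In NC, by FPKM, GUSB at 18.6 ± 0.610 and MAN2B1 at 18.3 ± 1.55 were highest and overlapped. GLB1, GAA, NEU1 and FUCA1 came next at 11.2, 10.5, 9.75 and 8.94 FPKM, with each neighbouring pair overlapping. HEXA at 5.80 and GLA at 4.37 FPKM lay apart below them. In siGDF15 MAN2B1 and FUCA1, at 30.5 ± 0.455 and 30.5 ± 0.814 FPKM, were highest and overlapped, followed by GAA and GLB1 at 23.8 and 23.5 FPKM, which overlapped too. NEU1 and GUSB followed at 16.2 and 15.3 FPKM and overlapped, and HEXA at 7.05 and GLA at 2.94 FPKM lay apart. FUCA1 moved from 6 to 2 in this order by FPKM and GUSB from 1 to 6.

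The order depends on the length by which each gene is divided. Expected counts divided by FPKM imply lengths relative to FUCA1, whose single listed transcript has 2047 bases. They come to 4.72 times the principal GENCODE transcript for GLA, 3.04 times for HEXA and 2.36 times for NEU1, and to 1.45 to 1.70 times for GAA, GLB1, MAN2B1 and GUSB. Counted instead per kilobase of the principal transcript, an order chosen after the data were seen, GUSB and MAN2B1 still led NC at 34.0 and 33.5 normalised counts per kilobase, GLA came 4 of 8 at 22.3, and FUCA1 was lowest at 9.66. In siGDF15 MAN2B1 led at 60.0 normalised counts per kilobase, and GLB1 and NEU1 followed with overlap at 45.4 and 44.6. FUCA1 came 5 of 8 there at 35.5, and not 2 as by FPKM, and GLA was lowest at 16.2. Fold changes of a gene between the groups are not altered by this choice of length. The expected counts of the 8 genes ran from 1096, for GLA in siGDF15 replicate 2, to 12490, for MAN2B1 in siGDF15 replicate 3.

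Paralogs and partner subunits were described next to each glycosidase. Of 16 listed, 10 passed the filter, 4 of these were higher, 2 lower and 4 not called, with a median log2 fold change of 0.15. The 6 of 10 called lie near the 61.4% of all genes tested. The balance of directions depended on the method. DESeq2 called 5 higher and 2 lower, whereas limma on log2(FPKM + 1) and edgeR on library totals each called 3 higher and 4 lower. Their medians were 0.045 in limma and 0.049 on library totals. None of the 10 paralogs reached a log2 fold change of 1. GLB1L, the paralog of GLB1, was at 1.86 ± 0.489 and 2.38 ± 0.260 FPKM and was not called (log2 fold change 0.47, 95% interval 0.04 to 0.89, adjusted p = 0.056). It was called in DESeq2 (adjusted p = 0.020), and in edgeR without NC replicate 2 (0.69, adjusted p = 0.0032) and after equalising the library medians (0.52, adjusted p = 0.034). MAN2B2, another lysosomal α-mannosidase, rose by 0.60 (SE 0.054, adjusted p = 2.9e-05), whereas the cytosolic MAN2C1 was not called (0.11, 95% interval −0.04 to 0.26, adjusted p = 0.17; without NC replicate 2, adjusted p = 0.031). FUCA2, the secreted α-fucosidase, rose by 0.29 (SE 0.046, adjusted p = 0.00073), with an interval of 0.19 to 0.40 against 1.69 to 2.06 for FUCA1. GANAB, the glucosidase II of the endoplasmic reticulum, rose by 0.41 (SE 0.040, adjusted p = 4.8e-05). Its relative GANC was not called (−0.22, adjusted p = 0.055). In edgeR GANC was called lower without NC replicate 3 (−0.28, adjusted p = 0.017), on library totals (adjusted p = 0.011) and with a filter of 0.1 (adjusted p = 0.040). It was also called lower in limma on log2(FPKM + 1) (adjusted p = 0.022). NEU3, the plasma membrane sialidase, fell by 0.37 (SE 0.066, adjusted p = 0.0015), from 3.31 ± 0.157 to 2.39 ± 0.0671 FPKM, where NEU1 rose. HEXD, a hexosaminidase found outside the lysosome, fell by 0.57 (SE 0.084, adjusted p = 0.00049), from 3.58 ± 0.281 to 2.23 ± 0.0496 FPKM. GLB1L2, GLB1L3, NEU2, NEU4, MGAM and SI were at 0.186 FPKM or less in every library and were not tested. Differences between a glycosidase and its paralog in fold change were not tested.

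**Figure D3:**
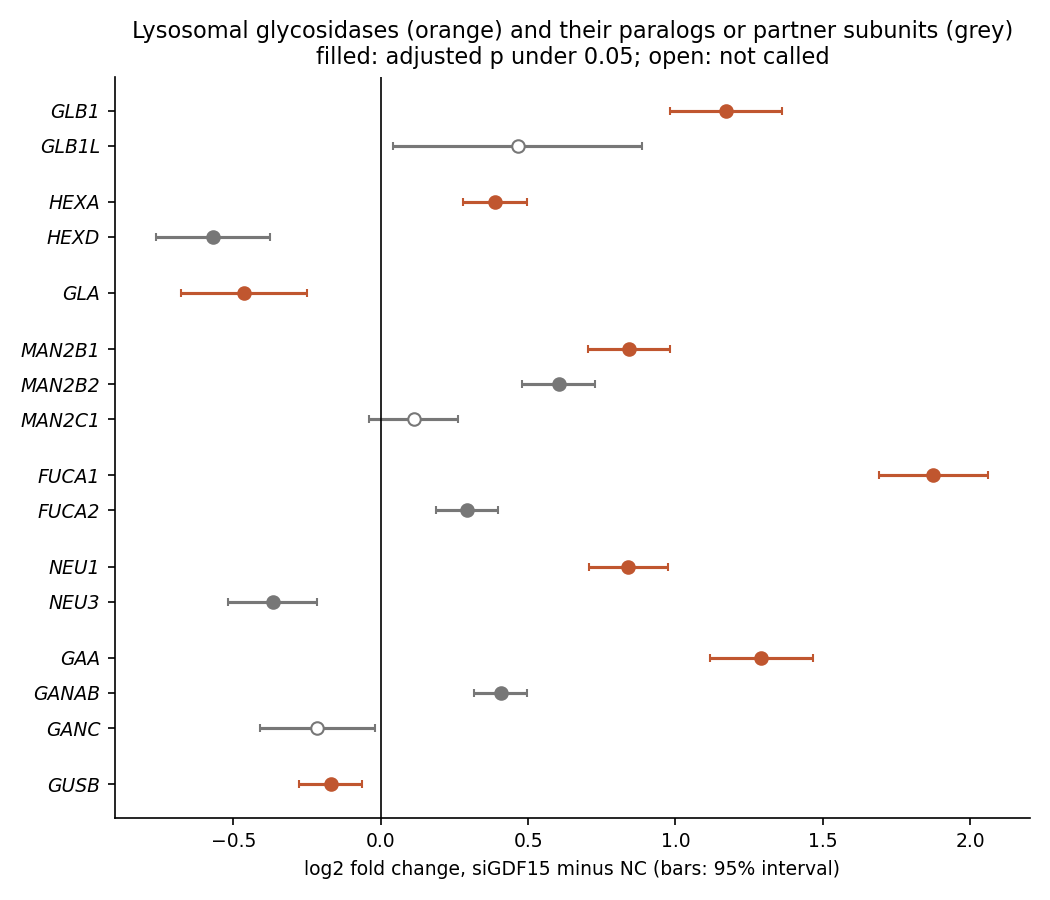
Log2 fold change of siGDF15 relative to NC with its 95% interval for each lysosomal glycosidase (orange) and the tested paralogs named in the text (grey), grouped by family, filled where called and open where not. The intervals of FUCA1 (1.69 to 2.06) and FUCA2 (0.19 to 0.40) do not meet, and NEU1 and NEU3 lie on opposite sides of 0.

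Other lysosomal enzymes that degrade glycans were mostly higher. Of 21 listed, of which MAN2B2 and some others are also in the list of paralogs, 19 were tested, 13 rose, 6 were not called and 0 fell in edgeR, with a median log2 fold change of 0.39. Those that rose are 68.4% of the tested list, against 30.0% of all genes tested. The share called is the same 68.4%, near the 61.4% of all genes tested. At an unadjusted p under 0.05 edgeR also had 0 lower, and DESeq2 called 0 lower, whereas limma on log2(FPKM + 1) called 2 lower and 10 higher, as did edgeR on library totals. SGSH, a sulfatase of heparan sulfate, rose by 1.25 (SE 0.058, adjusted p = 1.1e-06), from 4.78 ± 0.0980 to 10.6 ± 0.483 FPKM, and SIAE, which removes acetyl groups from sialic acids, by 1.23 (SE 0.085, adjusted p = 7.6e-06). GALC and HYAL1 were below the filter.

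Proteins that activate or stabilise these enzymes were taken as a list of 5. In edgeR 3 of the 5 were called, near the 61.4% of all genes tested. All 3 rose, which is 60% of the list, against 30.0% of all genes tested. CTSA rose as given above, PSAP, the precursor of the saposins, rose by 0.66 (SE 0.047, adjusted p = 8.8e-06), from 213 ± 8.86 to 312 ± 10.4 FPKM, and SUMF1, which activates sulfatases, by 0.70 (SE 0.060, adjusted p = 2.4e-05). GM2A and SCARB2, a lysosomal membrane protein, were not called (SCARB2 −0.15, adjusted p = 0.18; without NC replicate 3, −0.24 and 0.0075). In edgeR 0 of the 5 fell, also at an unadjusted p, and 0 in DESeq2, while limma on log2(FPKM + 1) called GM2A lower and edgeR on library totals called GM2A and SCARB2 lower.

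Of 9 genes that tag glycosidases with mannose 6-phosphate or sort them, 5 rose, 1 fell and 3 were not called, with a median log2 fold change of 0.17. The 6 of 9 called are again near the 61.4% of all genes tested. Those that rose are 55.6% of the list, against 30.0% of all genes tested. Limma on log2(FPKM + 1) called 4 higher and 1 lower, with a median of 0.062. On library totals edgeR called 4 higher and 2 lower, with a median of 0.066. SORT1, a sorting receptor, rose by 0.79 (adjusted p = 2.2e-05), GNPTAB and GNPTG, subunits of the enzyme that adds the tag, by 0.58 and 0.46 (adjusted p = 3.5e-05 and 0.00031), and NAGPA, which uncovers it, by 0.60 (adjusted p = 0.00022). M6PR, a receptor for the tag, rose by 0.17 (adjusted p = 0.018), and GGA2, a sorting adaptor, fell by 0.27 (adjusted p = 0.0013). Of 10 transcription regulators of lysosomal genes 8 were tested, 5 rose and 1 fell, with a median of 0.30, so 6 of 8 were called against the same 61.4%. The 5 that rose are 62.5% of those tested, against the same 30.0%. RRAGC and FLCN, which link amino acid sensing to these factors, rose by 0.54 and 0.35 (adjusted p = 5.1e-05 and 0.00044), TFE3 by 0.46 (adjusted p = 5.5e-05), MITF by 0.48 (adjusted p = 0.011) and RRAGD by 0.25 (adjusted p = 0.013). MITF lay near the filter, at 0.945 ± 0.125 FPKM in NC and 1.23 ± 0.0919 FPKM in siGDF15, and passed it only through siGDF15. The calls of MITF, RRAGD and M6PR were lost in limma, those of RRAGD (0.22) and M6PR (0.16) also without NC replicate 1, and that of M6PR without siGDF15 replicate 2 (0.15). MTOR fell by 0.30 (adjusted p = 0.0007). BHLHE40 was at 16.7 to 27.8 FPKM in NC and 14.2 to 16.1 FPKM in siGDF15 and was not called in edgeR (−0.40, adjusted p = 0.057). DESeq2, limma on log2(FPKM + 1) and edgeR on library totals each called 2 of the regulators lower. Limma called 3 of them higher, with a median of 0.16, and edgeR on library totals 4, with a median of 0.20. TFEB was at 1.55 ± 0.205 and 1.63 ± 0.132 FPKM and was not called (0.18, adjusted p = 0.23).

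**Figure D4:**
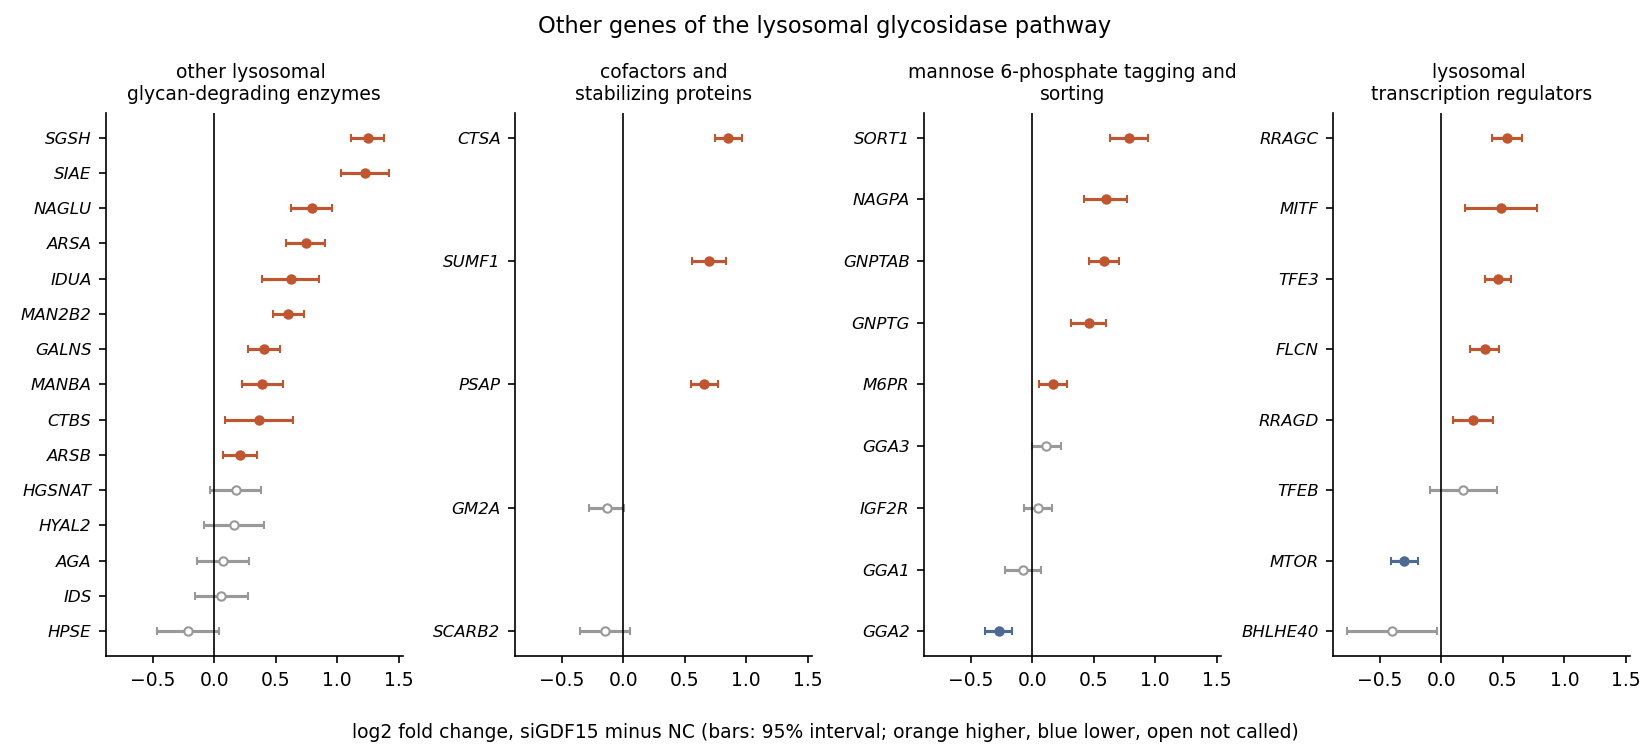
Log2 fold change of siGDF15 relative to NC with its 95% interval for the tested genes of 4 lists, the other glycan-degrading enzymes, cofactors, mannose 6-phosphate tagging and sorting, and transcription regulators, with higher calls in orange, lower calls in blue and genes not called open. Of the enzyme list 15 genes are drawn, 4 others being left out of the plot, and 10 of the 15 are called higher, while GGA2 and MTOR are the called points left of 0.

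Among genes near GLB1 in profile, distance was taken as the Euclidean distance of log2 CPM (counts scaled to a common library size) after subtraction of the NC mean, over the 6 libraries. Among the 5 nearest were LRRC8E, CASTOR3, NUS1P2 and MFSD3, at distances of 0.098, 0.105, 0.108 and 0.133 and with log2 fold changes from 1.11 to 1.16. Of the other 7 glycosidases GAA was nearest to GLB1, 34 of 11866 genes at a distance of 0.225. MAN2B1 came 345 and NEU1 348, FUCA1 1537 and HEXA 2150, and the falling GUSB and GLA came 7523 and 9798.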

How the data were processed

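The members and gene lists were chosen with earlier results of these data known. Poly(A) RNA was sequenced as read pairs in 3 NC and 3 siGDF15 libraries. The submitters' notes name fastp, HISAT2, StringTie and edgeR, and the build GRCh38. Versions are not given in the sources used here. The deposited FPKM are scaled by transcript length and mapped fragments. The authors derived the deposited expected counts from transcript coverage, as integers with no normalization, so they are no tally of reads. The authors' fold changes were not used.

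Expected counts were tested with edgeR 4.0.16 (R 4.3.3), TMM scaling and the quasi-likelihood test, two-sided, with a mean FPKM of at least 1. Intervals are 95% ones from the fit. Scripts were tested on simulated data. The alternatives were DESeq2 1.42.0, limma 3.58.1 on log2(FPKM + 1) and log2(FPKM + 0.1), other scalings, filters of 0.1 or none, a replicate block, and each library left out. Genes named outside the 8 were all tested paralogs and cofactors, up to 5 called genes of smallest adjusted p per direction in the other lists, and up to 3 of the largest changes per direction in KEGG. Some genes that this rule or the lists name are not reported here, though counts over lists include them. Figures were drawn with matplotlib 3.10.9.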

Additional observations from a re-analysis of the deposited data

How the results depend on the processing

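Across 15 alternatives the 8 glycosidase genes were refitted 120 times, and direction and call were kept in 118 of these, the exceptions being GUSB after the library medians were equalised and without siGDF15 replicate 3. FUCA1, GAA and GLB1 stayed at or above 1 on the log2 scale in each. The 32 other genes chosen by the naming rule gave 480 refits, of which 445 kept direction and call and 0 reversed. The number of cofactors called was 3 with TMM and 5 when counts were scaled by library totals alone. Replicate numbers are shared by NC and siGDF15 in the labels, but same-numbered libraries did not deviate together (correlations of 0.028, −0.075 and 0.046), so no pairing was taken. With the replicate block 8 of the 8 genes were called, and 6906 of 11867 genes in all, against 7286 without it.

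With 3 libraries in each group, each edgeR p-value sets the difference between the groups against the spread between those libraries. That spread is estimated with information shared across the genes tested. Expected counts, which derive from transcript coverage and are no tally of reads, were at least 1096 for every glycosidase gene in every library. Overlaps, pseudogenes and the unstated strand setting remain for GLA and GUSB, and genes on the same strand overlap MAN2B1, GLB1 and HEXA.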

Other observations

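The KEGG lysosome pathway lists 117 further genes in the deposited annotation, and 97 of them were tested. Of these 61 were higher, which is 62.9%, 13 were lower and 23 were not called, with a median log2 fold change of 0.32. Over all genes tested 30.0% were higher and 31.4% lower. For the KEGG list limma on log2(FPKM + 1) called 51 higher and 18 lower, with a median of 0.18. On library totals edgeR called 52 higher and 20 lower, with a median of 0.22. Large rises among called genes were those of CTSO, a cysteine cathepsin, at 2.32 and SLC17A5, the sialic acid exporter of the lysosome that carries away what NEU1 releases, at 1.73. The largest falls were those of ATP6V0D2, a subunit of the proton pump, at −2.25, CTSV at −0.98 and AP3M2 at −0.72. CTSO went from 0.730 ± 0.130 to 3.41 ± 0.262 FPKM (mean ± SD, n = 3, edgeR adjusted p = 2.4e-06), SLC17A5 from 4.03 ± 0.907 to 12.4 ± 0.930 FPKM (adjusted p = 2.1e-05) and ATP6V0D2 from 2.61 ± 1.19 to 0.502 ± 0.0181 FPKM (adjusted p = 0.00041). With an NC mean below 1 FPKM, CTSO passed the filter only through siGDF15. ATP6V0D2 and CTSV (0.853 ± 0.0392 FPKM in siGDF15) passed it only through NC. A filter on the mean of all 6 libraries lets in weakly expressed genes that differ in this way, which limits their place among the largest changes.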
